A study of Mus musculus with 7 samples.

Results

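Aminoacyl-tRNA synthetases are the enzymes that join each amino acid to its own tRNA, and 36 of their genes were followed here in Paneth cells of mice given dextran sulfate sodium (DSS) or water. The members were taken from a list of gene symbols, 20 for enzymes of the cytosol and 16 for enzymes that act in mitochondria, and all 36 were found among the 52550 genes of the count tables. The 2 sets were kept apart throughout.

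Each synthetase activates its amino acid with ATP and loads it onto tRNA, which then carries it to the ribosome. The enzymes fall into class I and class II, which differ in the fold of their catalytic domain, and in the cytosol several of them sit in a multi-synthetase complex. A cell short of amino acids, or under stress in the endoplasmic reticulum, makes the transcription factor ATF4, and several genes for cytosolic synthetases are known ATF4 targets. Paneth cells, the granule-filled cells at the crypt base, secrete large amounts of lysozyme and alpha-defensins and so depend heavily on protein synthesis.

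The samples were 7 libraries of polyadenylated RNA from Paneth cells sorted from small-intestinal crypts of C57BL/6J mice carrying Lgr5-EGFP-IRES-CreERT2, an allele that both groups share. Mice of the 4 DSS libraries drank 3% DSS, an agent that injures the gut lining, over 7 days and were then left 3 days without it, while those of the 3 control libraries were kept on water. Mice were 12 weeks old for water 1, water 2 and DSS 1, and 10 weeks old for water 3 and DSS 2 to DSS 4. The sort used CD24 and side scatter and excluded cells positive for TER119, CD31 or CD45, with a further stain for CD117 (c-Kit). The labels do not say whether a library was 1 animal or a pool, so the spread between libraries may be partly technical.

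Total counts ran from 23175708 to 32451653 per library, and every synthetase had at least 100 counts in every library. The 10 Paneth markers summed to between 222739 and 234378 CPM (counts scaled to library size) in water and to between 108725 and 189236 CPM in DSS. Tuft markers summed to between 337 and 351 CPM in water and to 335, 614, 604 and 318 CPM in DSS 1 to 4. Enteroendocrine markers summed to 45.3 CPM in water 1, against 1214 and 2187 CPM in water 2 and water 3 and 385 to 1025 CPM in DSS. Goblet markers summed to between 5934 and 7320 CPM in water and to between 5176 and 9811 CPM in DSS. Enterocyte markers summed to between 177 and 261 CPM in water and between 141 and 264 CPM in DSS. Of the 7 endothelial and mesenchymal markers, the 4 detected in water summed to at most 1.8 CPM in any library. The others were at 0 in water, were each detected in DSS and are not in that sum. Stem cell markers summed to between 3031 and 3626 CPM in water and between 2813 and 3600 CPM in DSS. The 8 white blood cell markers summed to between 9967 and 10257 CPM in water and between 3777 and 7104 CPM in DSS, nearly all of it Lyz2, a lysozyme gene, while the median log2 change of the 4 tested was 0.41 with 3 above 0. Of these markers S100a8 was at 0 in all 7 libraries and Ptprc, which encodes CD45, lay between 7.86 and 16.8 CPM. RNA was isolated on different days for water and DSS mice, so the isolation day and the treatment cannot be told apart. In sorted bulk RNA, fewer cells of a type and less RNA per cell cannot be told apart.

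The cytosolic enzymes had the higher levels. Levels between genes were compared as TMM-scaled CPM per kilobase of annotated exon. In water the cytosolic genes had a median of 25.3 CPM per kilobase and ranged from 8.76 to 109, while the mitochondrial genes had a median of 4.22 and ranged from 1.57 to 12.0. For every one of the 16 mitochondrial genes, the cytosolic gene for the same amino acid was higher per kilobase, by a median ratio of 3.90. Fars2 was paired with Farsa and not with Farsb, and Eprs served as the pair of both Ears2 and Pars2. The exon length counts all annotated exons of a gene, which lowers the value per kilobase of genes with long rarely used exons.

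The 3 highest cytosolic genes were Nars, Wars and Tars, which load asparagine, tryptophan and threonine. They stood at 109 ± 18.2, 83.0 ± 7.20 and 59.7 ± 7.60 CPM per kilobase in water (SD, n = 3). Wars is also known for its induction by interferon-gamma. Per kilobase, Nars was above Wars within each of the 7 libraries, although the lowest Nars library was at the level of the highest Wars library in water. The 2 lowest were Yars for tyrosine, at 10.6 ± 2.26, and Farsa, the alpha subunit of phenylalanyl-tRNA synthetase, at 8.76 ± 0.417. Farsb, its beta subunit, stood at 34.2 ± 1.70. The working enzyme holds both subunits in equal number.

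Among the mitochondrial genes Rars2, Lars2 and Iars2, for arginine, leucine and isoleucine, were highest at 12.0 ± 0.968, 8.17 ± 0.284 and 8.16 ± 0.702 CPM per kilobase in water (SD, n = 3). Of the exon bases of Iars2, 24.2% overlap genes on the other strand, chiefly Rab3gap2, which measured 54.5 to 61.1 CPM. Reads were counted without strand, so those of the overlap cannot be told apart. Nars2 and Pars2, for asparagine and proline, were lowest at 1.78 ± 0.174 and 1.57 ± 0.106. Per kilobase, the ratio of cytosolic to mitochondrial level therefore differed widely by amino acid. It was 62.3 ± 16.0 for asparagine and 45.8 ± 9.48 for tryptophan, against 1.86 ± 0.590 for tyrosine (SD, n = 3 water libraries). These ratios depend on the annotated exon lengths. The lengths were 2632 and 6967 bases for Nars and Nars2, 3447 and 5946 for Wars and Wars2, and 5943 and 3149 for Yars and Yars2. Glycine and lysine have no pair here, since Gars and Kars each encode the cytosolic and the mitochondrial enzyme. Mitochondria also lack an enzyme for glutamine and instead convert glutamate already bound to tRNA.

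**Figure D1:**
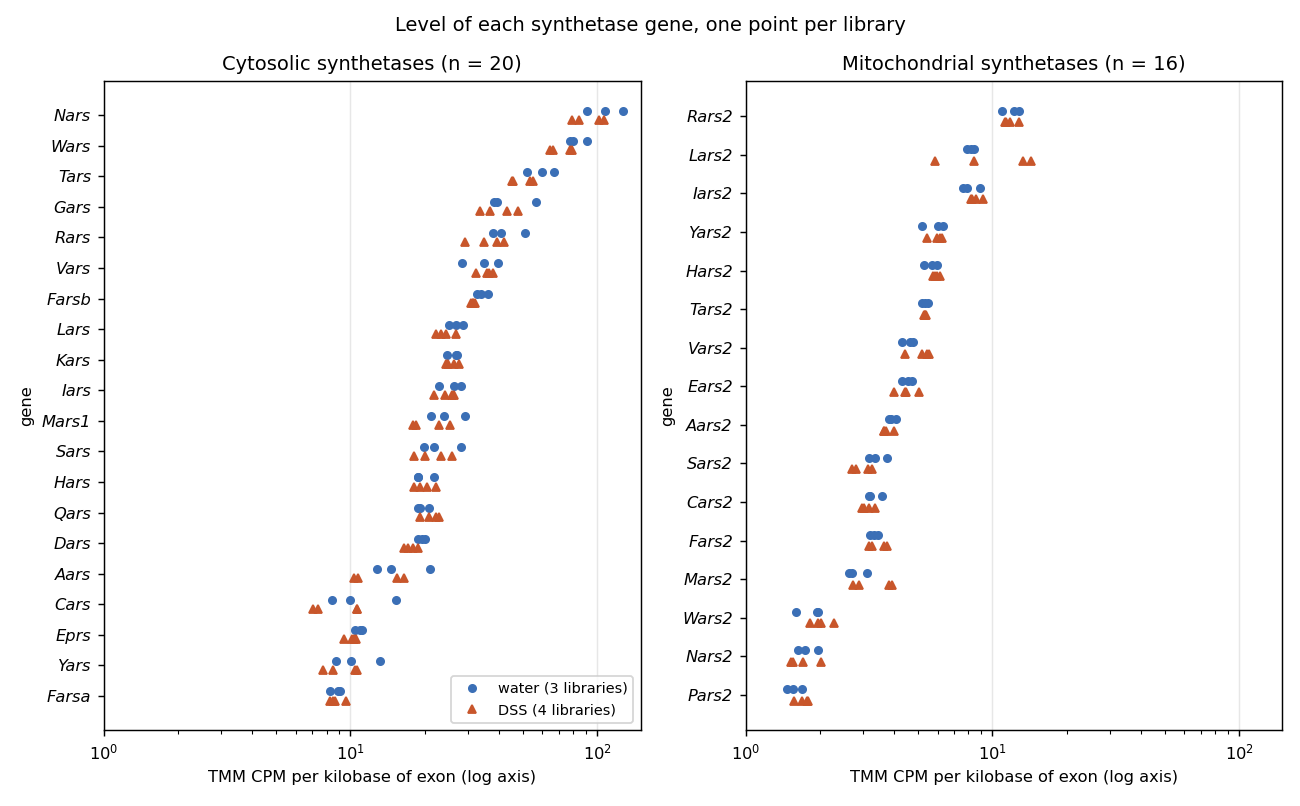
Each point is 1 library and shows TMM CPM per kilobase of exon on a log axis for a synthetase gene, with circles for the 3 water libraries and triangles for the 4 DSS libraries. Genes are ordered by their water mean, from Nars at 109 to Farsa at 8.76 among cytosolic genes and from Rars2 at 12.0 to Pars2 at 1.57 among mitochondrial genes.

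The comparison of DSS with water asks how Paneth cells respond to injury of the gut lining. No synthetase gene passed edgeR's quasi-likelihood test at a Benjamini-Hochberg adjusted p under 0.05 over the 17449 genes tested, and neither did any other gene (percent called 0 in each direction). At an unadjusted p under 0.05 edgeR gave 2 synthetases lower in DSS, Dars and Tars, and 0 higher, beside 7.35% of all genes lower and 8.36% higher. DESeq2 called 0 synthetases, beside 2.61% of all genes higher and 2.23% lower, and limma-voom called 0. Scaling by library totals alone, edgeR called Qars and Vars2 higher and 0 synthetases lower, beside 12.1% of all genes higher and 0.160% lower. All 36 members passed the filter on low counts.

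The cytosolic set had a median log2 change of -0.15 in DSS with 17 of 20 estimates below 0, beside a median of -0.0015 and 50.3% below 0 over all genes, but the median turned to 0.084 when libraries were scaled by their totals alone. That scaling moved the median of all genes to 0.23, still above that of the set. Leaving out water 2 brought the set's median to -0.046, and the comparison of 10-week mice alone (water 3 against DSS 2 to 4) gave -0.011. The estimates ran from -0.33 for Cars to 0.12 for Qars. The mitochondrial set had a median of 0.045, with 7 of 16 estimates below 0, and ran from -0.20 for Sars2 to 0.36 for Lars2. Its median was 0.28 with library totals alone.

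**Figure D2:**
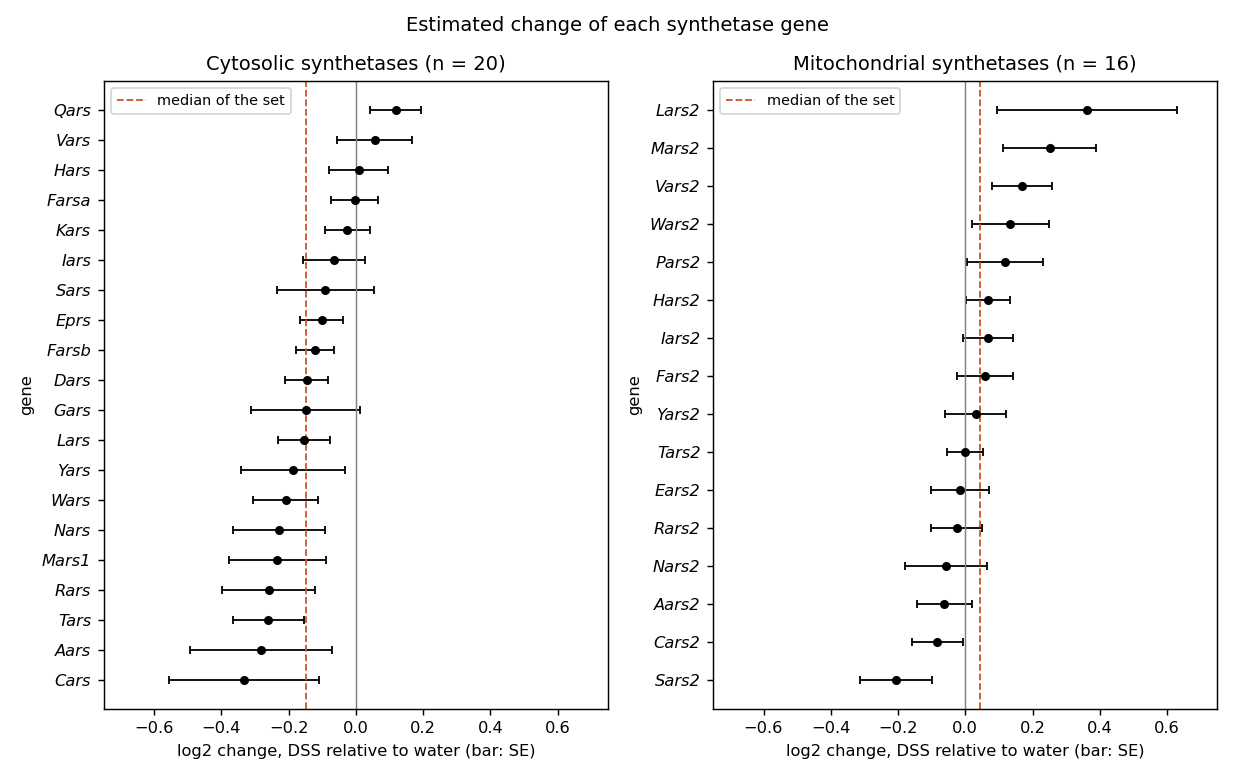
Points are the log2 change of each synthetase gene in DSS relative to water from edgeR, and bars are standard errors from the fit. The dashed line is the median of the set, -0.15 for the 20 cytosolic genes (0.084 with library totals alone) and 0.045 for the 16 mitochondrial genes, and no gene passed the adjusted threshold.

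Farsb was the only member whose DSS libraries lay all on the same side of all water libraries, against 7.51% of all genes with every DSS library below and 7.40% above. Farsb measured 94.3, 85.4 and 88.8 CPM in water 1 to 3 and 82.2, 80.6, 84.0 and 82.3 CPM in DSS 1 to 4. The gap between the groups was small, with the lowest water library at 85.4 and the highest DSS library at 84.0 CPM. Its log2 change was -0.12 ± 0.06 (SE) with an edgeR adjusted p of 0.335. Farsb (ENSMUSG00000026245.16) spans mm10 chromosome 1, positions 78417975 to 78488897, minus strand. Of the gene, 9.47% of exon bases overlap Sgpp2 on the other strand. Reads were counted without strand, so those of the overlap cannot be told apart.

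Its partner subunit Farsa was level across the groups, with a log2 change of -0.0035 ± 0.07. Farsa measured 40.3, 41.3 and 37.7 CPM in water and 37.4, 43.4, 39.3 and 38.6 CPM in DSS, and the groups overlapped fully. Tars had the smallest p of any member, with 158, 177 and 137 CPM in water and 145, 141, 120 and 120 CPM in DSS. Its change was -0.26 ± 0.11 (edgeR adjusted p = 0.284), and the 2 highest DSS libraries lay above the lowest water library. Dars, which loads aspartate, measured 87.3, 81.8 and 84.9 CPM in water and 78.2, 74.3, 82.0 and 71.5 CPM in DSS. Only DSS 3 reached into the water range, and the change was -0.15 ± 0.06 (edgeR adjusted p = 0.310).

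The larger differences lay between single libraries rather than between the groups. In 13 of the 20 cytosolic genes water 2 was the highest of the 7 libraries, which held for 0 of the 16 mitochondrial genes and for 15.5% of all genes tested. Among the water libraries alone water 2 was highest in 14 of the 20 and in 1 of the 16, beside 33.6% of all genes. In 15 of the 20 DSS 4 was the lowest, which held for 2 of the 16 mitochondrial genes and for 12.5% of all genes. The 13 genes with water 2 on top were those with the widest range over libraries, Cars, Aars, Rars, Gars, Yars, Mars1, Nars, Sars, Tars, Wars, Vars, Lars and Iars in that order. Their highest library exceeded their lowest by 1.29 to 2.18 times. In the other 7, Hars, Dars, Qars, Eprs, Farsb, Farsa and Kars, the ratio was 1.13 to 1.22. This division was made after the values were seen and is a description.

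Cars, for cysteine, had the widest range of the cytosolic genes. It measured 65.9, 101 and 55.4 CPM in water 1 to 3 and 70.1, 70.2, 48.5 and 46.3 CPM in DSS 1 to 4. Water 2 stood above all others, DSS 3 and DSS 4 below all others, and water 1 and water 3 lay under DSS 1 and DSS 2. Aars, for alanine, had the same libraries high and low, with 136, 195 and 118 CPM in water and 153, 144, 95.9 and 99.7 CPM in DSS. Their log2 changes of -0.33 ± 0.22 and -0.28 ± 0.21 did not pass (edgeR adjusted p of 0.511 and 0.564), and were -0.046 and -0.047 without water 2. Aars (ENSMUSG00000031960.14) spans chromosome 8, positions 111033144 to 111057664, plus strand. It shares 15.1% of its exon bases with other genes, chiefly Exosc6 on the same strand, over 1326 bases. Exosc6 was listed at 0 in all libraries. Reads within the shared bases cannot be told apart, so that 0 does not show that Exosc6 was not expressed.

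Rars, for arginine, measured 132, 165 and 123 CPM in water and 135, 126, 112 and 94.4 CPM in DSS. Gars, for glycine, measured 123, 177 and 119 CPM in water and 135, 150, 115 and 105 CPM in DSS, so that DSS 1 and DSS 2 lay above water 1 and water 3. Nars, the highest gene of the set, measured 284, 336 and 240 CPM in water and 267, 280, 223 and 209 CPM in DSS. The groups overlapped in each of these, and the order of water 2 on top and DSS 4 at the bottom held in all 3. Kars, for lysine, had the narrowest range, with 121, 120 and 110 CPM in water and 117, 123, 111 and 109 CPM in DSS. Eprs, which carries the glutamate and the proline enzyme in a single chain, ranged over 1.18 times and Qars, for glutamine, over 1.21 times.

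**Figure D3:**
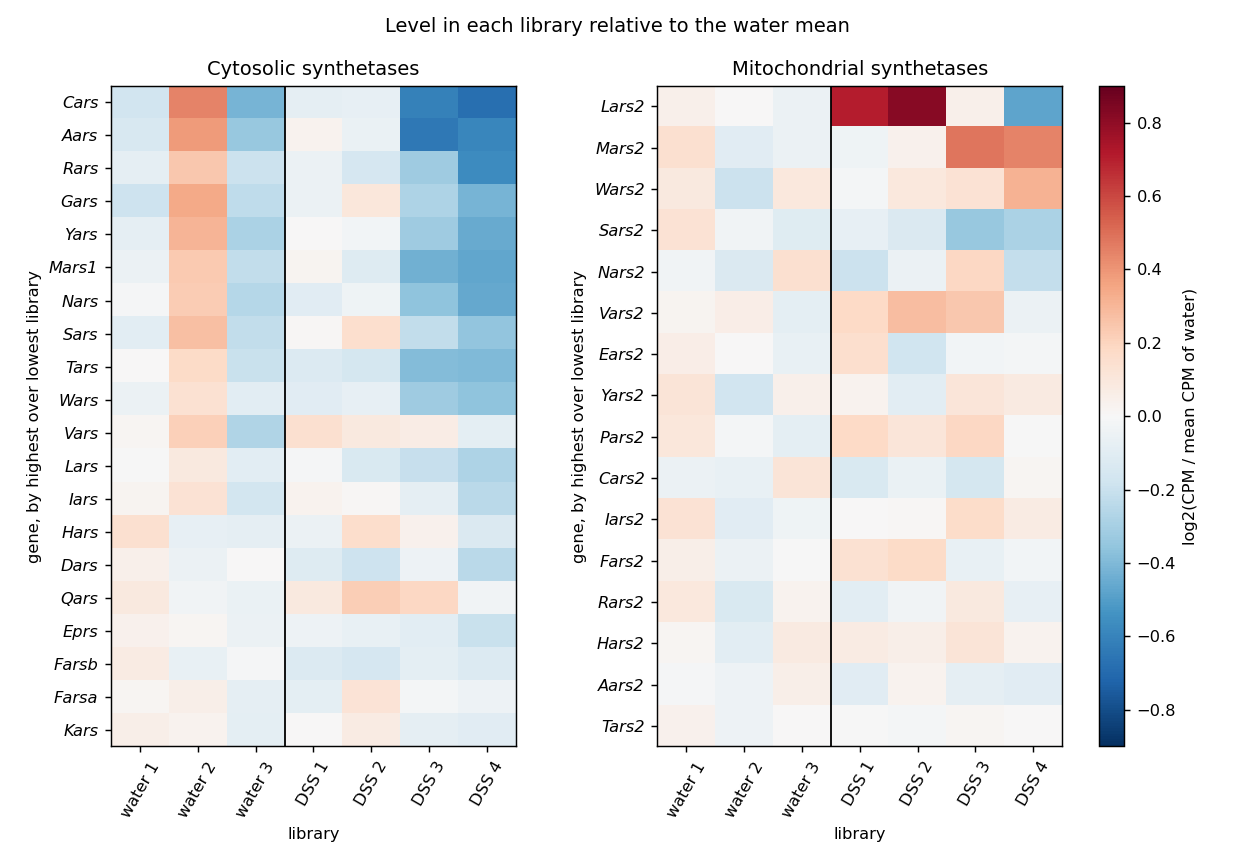
Colour gives the log2 ratio of each library's CPM to the mean of the 3 water libraries, with genes ordered within each set by the ratio of their highest to their lowest library. The upper rows of the cytosolic set are high in water 2. They are low in DSS 3 and DSS 4, apart from Vars and, in DSS 3, Iars. The rows from Hars to Kars and nearly all mitochondrial rows are pale.

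Summed over the 20 cytosolic genes, water 1 to 3 held 2590, 2958 and 2336 CPM and DSS 1 to 4 held 2576, 2592, 2266 and 2112 CPM. The groups overlapped, with water 3 below DSS 1 and DSS 2. The 16 mitochondrial genes summed to 473, 433 and 449 CPM in water and to 511, 525, 483 and 438 CPM in DSS, where Lars2 made much of the difference between libraries. Water 2, the highest library for the cytosolic sum, was the lowest for the mitochondrial sum. Paneth markers also lay lowest in DSS 3 and DSS 4, with medians of -0.68 and -0.63 relative to the water mean on the log2 scale, against -0.14 and -0.16 in DSS 1 and DSS 2. Their part in the synthetase values was not tested.

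Position in the complex was read next. The 8 members of the multi-synthetase complex, Eprs, Lars, Iars, Mars1, Qars, Rars, Kars and Dars, had a median log2 change of -0.12, and the 12 other cytosolic genes had -0.17. The median ratio of highest to lowest library was 1.25 in the complex and 1.51 outside it. Water 2 was highest in 4 of the 8 and in 9 of the 12, beside 15.5% of all genes. The 3 scaffold genes of the complex, Aimp1, Aimp2 and Eef1e1, had estimates above 0, with Aimp1 at 43.3, 43.3 and 43.4 CPM in water and 43.5, 47.8, 45.7 and 46.4 CPM in DSS. None passed (lowest edgeR adjusted p of 0.473). By fold of the catalytic domain, the 9 class I genes had a median change of -0.19 and the 10 class II genes -0.13, with Eprs holding a domain of each class.

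Among mitochondrial genes Lars2 had the widest range, with 93.7, 90.8 and 87.4 CPM in water and 148, 160, 93.4 and 65.2 CPM in DSS. DSS 1 and DSS 2 stood far above the water libraries and DSS 4 below them, with a log2 change of 0.36 ± 0.27 (edgeR adjusted p = 0.559). Lars2 (ENSMUSG00000035202.8) spans chromosome 9, positions 123366927 to 123462666, plus strand. A transcript of Lars2 matches Gm15564 over 72 bases at 98.6% identity, so reads of that stretch could be placed on either gene. Gm15564 measured 5.76, 5.24 and 4.49 CPM in water and 7.27, 11.0, 5.19 and 2.58 CPM in DSS, with the DSS libraries in the same order as for Lars2. AA474408 matches Lars2 over 50 bases at 96.0% identity. It measured 2.05, 1.78 and 2.52 CPM in water and 2.12, 2.21, 1.99 and 1.55 CPM in DSS. Its DSS libraries had that order too, but water 3 was its highest library. Gm26917, a noncoding gene chosen after its values were seen, also had that order among DSS libraries. It measured 53.4, 66.5 and 57.2 CPM in water and 106, 163, 69.0 and 41.1 CPM in DSS. The search for shared sequence found no match between Gm26917 and Lars2. The part of shared reads in the Lars2 values was not tested.

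Mars2, for methionine, measured 34.9, 29.6 and 30.5 CPM in water and 30.9, 32.5, 44.2 and 43.2 CPM in DSS, high in DSS 3 and DSS 4 only (log2 change 0.25 ± 0.14, edgeR adjusted p = 0.420). Its cytosolic counterpart Mars1 was lowest in those same libraries, with 81.7, 100 and 72.9 CPM in water and 86.3, 78.3, 62.9 and 61.5 CPM in DSS. Sars2, for serine, had the lowest estimate of the set, with 12.4, 11.1 and 10.5 CPM in water and 10.8, 10.4, 8.93 and 9.29 CPM in DSS. The change was -0.20 ± 0.11 (edgeR adjusted p = 0.393). Vars2, for valine, measured 25.4, 26.1 and 23.5 CPM in water and 28.4, 30.3, 29.6 and 24.1 CPM in DSS, and only DSS 4 lay within the water range (0.17 ± 0.09, edgeR adjusted p = 0.405). Tars2 was nearly level between libraries, from 35.9 to 38.1 CPM, a ratio of highest to lowest of 1.06.

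In 15 of the 16 pairs of genes for the same amino acid, the cytosolic estimate was below the mitochondrial one, the exception being Sars and Sars2. The estimate of Eprs enters the pairs of both Ears2 and Pars2, and Fars2 is set beside Farsa only. These differences share libraries and were not tested.

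The promoters of the cytosolic set were read because many of its members shared their highest and lowest libraries. RefSeq promoters (GRCm38.p6, from 250 bases before to 50 after the start of the gene) were given for 13 of the 20 cytosolic and 14 of the 16 mitochondrial genes. The ATF4-type motif TGATGCAA, searched on both strands, was present in those of Aars, Iars, Tars and Yars and in 0 of the 14 mitochondrial genes, while 0.895% of all 32851 promoters held it. The looser TGATGNAA, which contains it, was also found in Gars and was present in 3.97% of all promoters. Of the 24 amino acid response genes described below, 21 had a promoter given, with TGATGCAA in 4 and TGATGNAA in 6. Atf4 and Slc38a2 held neither, and Asns held only the looser form. Stretches of 4 of these genes are shown 5′ to 3′ on the strand of the gene, with the motif in capitals, read on the opposite strand in all except Yars and Asns, beside those of the response genes Chac1 and Asns.
Tars (chr15:11399655-11399684, minus strand): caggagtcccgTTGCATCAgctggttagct
Iars (chr13:49682126-49682155, plus strand): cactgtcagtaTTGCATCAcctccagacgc
Yars (chr4:129189895-129189924, plus strand): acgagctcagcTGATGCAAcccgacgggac
Gars (chr6:55037960-55037989, plus strand): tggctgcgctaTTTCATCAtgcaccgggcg
Chac1 (chr2:119351038-119351067, plus strand): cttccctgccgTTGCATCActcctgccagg
Asns (chr6:7693214-7693243, minus strand): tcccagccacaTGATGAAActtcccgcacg

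The matches in Tars and Gars lie before the start, the nearest base at -8 and -23, and those in Iars and Yars begin 8 and 4 bases into the gene. All 4 genes with TGATGCAA were among those with water 2 on top, with ratios of highest to lowest library of 2.03 for Aars, 1.69 for Yars, 1.48 for Tars and 1.29 for Iars. Of the 9 cytosolic promoters in which it was not found, 3 were also of this kind, namely Gars, Mars1 and Sars, and the other 6 belonged to genes with ratios of at most 1.22. No promoter was given for Cars, Lars, Nars, Rars, Vars and Wars, which also had water 2 on top, or for Hars, which did not. The division by water 2 was made after the values were seen, and a link with the motif was not tested. The E-box CACGTG, on both strands alike, was present in the promoters of Aars, Farsb, Iars and Tars and of Ears2, and in 7.15% of all promoters. A match is a run of letters and not a measured binding site.

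Genes of the amino acid response showed the same libraries at the top and bottom. This list of 24 genes holds Eif2ak4, the kinase that senses uncharged tRNA, Atf4, and ATF4 targets for amino acid synthesis and transport. Water 2 was the highest of the 7 libraries in 19 of the 24, against 15.5% of all genes. DSS 3 or DSS 4 was the lowest in 21 of the 24, against 30.9% of all genes. The list's median log2 change was -0.34, with 20 of 24 estimates below 0. None passed in edgeR over all genes, where 5 had an unadjusted p under 0.05, all with estimates below 0, beside 7.35% of all genes. The DSS libraries lay all below the water libraries in 5 of the 24 (Atf4, Chac1, Trib3, Pycr1 and Eif2ak4), beside 7.51% of all genes.

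Atf4 measured 271, 305 and 250 CPM in water 1 to 3 and 231, 231, 187 and 206 CPM in DSS 1 to 4, a log2 change of -0.37 ± 0.10 (edgeR adjusted p = 0.167). In DESeq2 Atf4 passed with an adjusted p of 0.0168, as did Slc38a2 (0.0410) and Eef1b2 (0.0155), and over all settings the adjusted p of Atf4 ran from 0.0168 to 0.999. Chac1, a glutathione-degrading enzyme strongly induced by ATF4, measured 29.9, 100 and 20.8 CPM in water and 19.0, 7.95, 2.03 and 3.86 CPM in DSS. Its change of -2.65 ± 0.73 (edgeR adjusted p = 0.169) was -1.65 without water 2. Trib3, a pseudokinase that restrains ATF4, measured 5.62, 19.7 and 4.28 CPM in water and 4.28, 2.27, 0.790 and 1.09 CPM in DSS. Its change of -2.25 ± 0.64 (edgeR adjusted p = 0.177) was -1.26 without water 2. Chac1 and Trib3 passed in edgeR without a low-count filter (adjusted p of 0.0039 and 0.0068) and with library totals alone (0.0448 and 0.0491), not in DESeq2 (0.0785 and 0.0938), and over all settings both reached 0.999. DSS 1 lay just under the lowest water library in Chac1 and Trib3, and DSS 3 and DSS 4 were far lower.

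Slc38a2, an amino acid transporter, measured 243, 305 and 212 CPM in water and 231, 168, 148 and 169 CPM in DSS (-0.50 ± 0.17, edgeR adjusted p = 0.214). Asns, asparagine synthetase, was chosen after its values were seen, and measured 208, 288 and 186 CPM in water and 198, 206, 133 and 132 CPM in DSS. Its change of -0.44 ± 0.20 (edgeR adjusted p = 0.330) was -0.24 without water 2. Ddit3, another gene of this response, overlaps Mars1 on the other strand over 2.0% of the exon bases of Mars1.

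**Figure D4:**
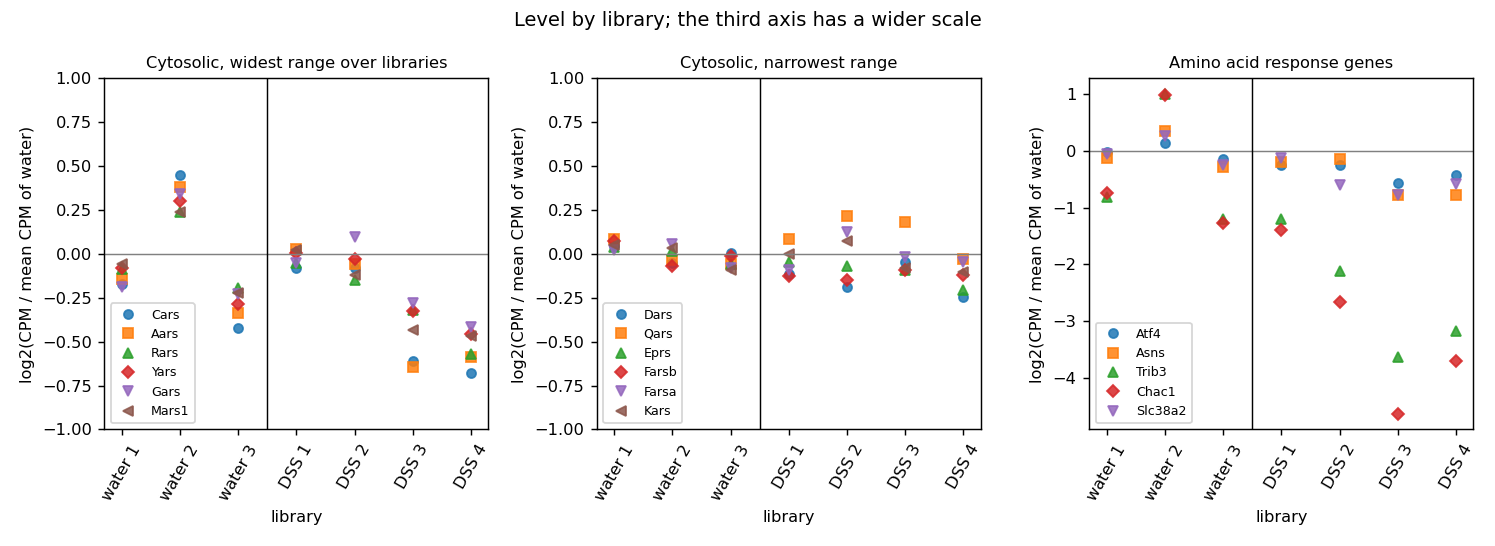
Points give the log2 ratio of each library's CPM to the mean of the 3 water libraries for the 6 cytosolic synthetases of widest range, the 6 of narrowest range and 5 amino acid response genes, with a wider axis for the last. Cars at 101 CPM and Chac1 at 100 CPM are highest in water 2, and DSS 3 and DSS 4 are the lowest libraries for the genes of wide range and of the response, except that DSS 2 lies just under DSS 4 for Slc38a2, while Kars to Dars stay within 1.13 to 1.22 times.

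Of the other genes around tRNA charging, few stood apart. Sepsecs, which makes selenocysteine on its tRNA, measured 42.9, 39.6 and 42.5 CPM in water and 47.2, 43.4, 49.9 and 45.3 CPM in DSS (0.15 ± 0.07, edgeR adjusted p = 0.310). The 4 genes that amidate or formylate mitochondrial tRNA, Gatb, Gatc, Qrsl1 and Mtfmt, had a median of 0.073 and all overlapped between the groups. Of 7 proofreading and recycling genes Prorsd1 had the smallest p, with 12.8, 12.9 and 12.7 CPM in water and 10.9, 10.6, 10.7 and 9.65 CPM in DSS, all below water (-0.29 ± 0.08, edgeR adjusted p = 0.177).

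The 6 genes for delivery of charged tRNA to the ribosome were those of elongation factors and of their exchange factors. Estimates were above 0 in all 6, with a median of 0.15 relative to a median of -0.0015 over all genes. Eef1b2, an exchange factor for the elongation factor, measured 372, 340 and 326 CPM in water and 384, 431, 514 and 467 CPM in DSS, all above water (0.38 ± 0.11, edgeR adjusted p = 0.175). Of 39 genes of tRNA processing and modification 37 were tested, with a median of 0.014, 4 at an unadjusted p under 0.05 with estimates above 0 and 0 below, beside 8.36% and 7.35% of all genes. Hsd17b10, a subunit of mitochondrial RNase P, measured 38.5, 35.1 and 38.0 CPM in water and 43.5, 41.3, 48.2 and 43.9 CPM in DSS (0.25 ± 0.07, edgeR adjusted p = 0.177). Neither list held a gene past the adjusted threshold in edgeR with TMM, while Eef1b2 passed in DESeq2 and, with library totals alone, Eef1b2 and Hsd17b10 passed in edgeR (adjusted p of 0.0362 and 0.0350).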

How the data were processed

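The authors deposited raw counts per gene for each library, made with featureCounts 1.5.3 on exons of GENCODE mouse release 15, per the file headers. Primary alignments were counted without strand, each read to the gene of largest overlap and with a minimum overlap fraction of 0.8. Per the submitters' processing notes, tools included STAR 2.5.3a and DESeq2, with featureCounts given as 1.5.2, and the build was mm10. The file of DSS 2 is described as merged. The deposited files also hold other values, the exon length of each gene. Symbols were paired by identifier for 52403 of 52550 genes.

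From the counts, edgeR 4.0.16 (R 4.3.3) kept 17449 genes with filterByExpr, scaled by TMM (factors from 0.899 to 1.14) and compared 4 DSS with 3 water libraries by the quasi-likelihood test without covariates, with Benjamini-Hochberg adjustment at 0.05. CPM values are TMM-scaled, and 3 counts equal 0.0924 to 0.129 CPM. DESeq2 1.42.0 and limma 3.58.1 were alternatives, beside other scalings and filters, age as a covariate, subsets by age or file name and leaving out each replicate. Log2 changes are DSS relative to water, and SE comes from the fit. Libraries of a group differed by more than counting error (13.3 or more chi-square units per degree of freedom).

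The members and gene lists were chosen with earlier results of these data known. Values in every library were to be given for members with groups that do not overlap, for the highest and lowest members per length and for up to 4 genes of smallest p in each list. Those named for their range over libraries were added after their values were seen, as were the settings for pathway genes and for the difference of medians. Sequence shared with other transcripts was searched with blastn 2.17.0. On simulated counts for this comparison over 17449 genes, edgeR found 52.2% of the 67 genes given a 1.5-fold difference and 89.6% of the 67 given a 2-fold difference. It also called 12 unchanged genes. Each gene was drawn independently, so the simulation lacked shifts shared by many genes of a library, and its shares may not hold for the real counts. 1 related gene and 1 promoter stretch are not reported here.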

Additional observations from a re-analysis of the deposited data

How the results depend on the processing

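No paired analysis was possible because the groups share only 1 number in the titles, that of water 3, DSS 2 and DSS 3, whose meaning is not stated. Of 648 values for the 36 members under 18 alternatives, 574 kept their direction and their side of the threshold, 2 passed it newly and 72 changed sign. The numbers of genes higher and lower, 0 and 0 as reported, were 347 and 297 with DESeq2, 240 and 201 without a low-count filter, 2107 and 28 with library totals only, 3 and 6 for the 3 water libraries and DSS 4, whose file names share a number, and 2 and 0 in 12-week mice, where the lone DSS library is assumed to vary like water, as the lone water library of the 10-week mice is assumed to vary like DSS. Leaving out each replicate gave 0 to 168 higher and 0 to 135 lower, the most without DSS 1 (168 and 135), and 9 higher without DSS 4. With library totals only, 1 cytosolic and 1 mitochondrial gene passed, Qars at 0.35 (adjusted p = 0.0449, range over settings to 0.999) and Vars2 at 0.40 (0.0391, range to 0.999), and the medians were 0.084 and 0.28. With the 3 water libraries and DSS 4 alone, which is assumed to vary like water, the medians were -0.33 and -0.018. Leaving out each replicate gave cytosolic medians from -0.19 to -0.046 and mitochondrial medians from 0.0014 to 0.080. The difference of medians, cytosolic minus mitochondrial, ran from -0.24 to -0.048 in the same way and was -0.0079 in 10-week mice.

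Sign changes with library totals only, which moves the median of all genes up, were Aars2 0.17, Cars2 0.15, Dars 0.089, Ears2 0.22, Eprs 0.13, Farsa 0.23, Farsb 0.11, Gars 0.080, Iars 0.17, Kars 0.21, Lars 0.076, Nars 0.00069, Nars2 0.18, Rars2 0.21, Sars 0.14, Sars2 0.025, Tars2 0.24, Wars 0.021 and Yars 0.041. In 10-week mice they were Farsa 0.10, Gars 0.046, Hars2 -0.010, Iars 0.069, Kars 0.058, Sars 0.097, Tars2 0.00030, Yars 0.030 and Yars2 -0.011. In 12-week mice they were Ears2 0.11, Hars -0.096, Iars2 -0.021 and Mars2 -0.071. With age as a covariate they were Ears2 0.052, Iars 0.015, Kars 0.010 and Sars 0.0074. In the subset by file name they were Cars2 0.011, Fars2 -0.030, Hars -0.14, Lars2 -0.48, Pars2 -0.0095, Qars -0.036, Vars -0.095 and Vars2 -0.061. Tars2 was at 0.00064 with a filter of 1 CPM in 4 libraries, 0.00091 with limma-voom and 0.0086 without a low-count filter, where Farsa was at 0.0052. Leaving out each replicate, sign changes occurred in Ears2 (-0.072 to 0.037), Farsa (-0.049 to 0.025), Gars (-0.25 to 0.056), Hars (-0.046 to 0.086), Iars (-0.14 to 0.00029), Kars (-0.068 to 0.00098), Nars2 (-0.15 to 0.024), Rars2 (-0.089 to 0.024), Sars (-0.19 to 0.063), Tars2 (-0.022 to 0.019), Vars (-0.062 to 0.17) and Yars2 (-0.048 to 0.090). The cause of these differences was not tested. None of 46 series among the 4 DSS libraries had a library past Dixon's 95% limit. In simulated counts, with each gene drawn independently, 52.2% of genes with a 1.5-fold difference were found, and smaller differences were not simulated.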
